A study of Canis lupus familiaris with 42 samples.

Results

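Immune checkpoint genes encode the ligands, receptors and enzymes that hold back T cells and macrophages, and 10 of them were followed here in sarcomas that arose spontaneously in dogs. They are the ligand genes CD274, CD80 and CD47, the receptor genes PDCD1, CTLA4, LAG3, HAVCR2 and SIRPA, and the enzyme genes IDO1 and IDO2. All 10 were among the 15115 genes named on the Affymetrix canine array, with 27 of its 42924 probe sets, and each gene was represented by the probe set with the highest mean over all arrays. The arrays comprised 21 taken after the first hyperthermia treatment, labelled hyperthermia, and 21 taken before it, labelled none, with 1 array of each kind per tumour. Hyperthermia, the heating of the tumour, was given beside radiotherapy. The labels name no strain, age or sarcoma type, do not give the time from heating to the later sample or whether irradiation came between, and include no unheated tumour sampled again. Values are RMA levels on the log2 scale, in which the probes of a set were summarised after the arrays had been brought to a common distribution, so a change of 1 is a doubling of signal.

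As background, known mainly from human and mouse, CD80 on antigen-presenting cells binds CD28, which activates T cells, and CTLA4, which restrains them. CD274 (PD-L1) binds PDCD1 (PD-1) on T cells, LAG3 binds MHC class II and other ligands, and HAVCR2 (TIM-3) is found on T cells and on myeloid cells. CD47 on many cell types binds SIRPA on macrophages and dendritic cells and restrains engulfment, and IDO1 and IDO2 break down tryptophan, on which T cells depend. Interferon gamma is a known inducer of CD274 and IDO1.

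The samples were whole tumour pieces, so fewer cells of a type and less RNA per cell cannot be told apart. Of 12 sarcoma and mesenchymal markers all were measured, and their mean level per array ran from 11.18 to 12.47 after and from 11.24 to 12.29 before treatment. The tumours, numbered 1 to 21 as names only, fell into sets of 9 and 12 by the signal of their poly-A spike-in controls, which are bacterial RNAs put into each sample ahead of the labelling step. This signal was between 6.01 and 7.60 in the 9 tumours with high spike-in signal and between 3.15 and 4.08 in the 12 with low signal. No label explains the split. The contrast of 3′ against 5′ actin and GAPDH control probes, a sign of RNA quality, changed by 0.38 ± 0.38 in the high spike-in tumours and by -0.001 ± 0.37 in the low ones (mean ± SD, n = 9 and 12). Changes of the 10 genes are therefore also given within each set.

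Of the 10 checkpoint genes, SIRPA rose and CD80 and IDO2 fell between the samples, while the other 7 did not pass the test (limma with the tumour as a block, Benjamini-Hochberg adjusted p under 0.05 over all probe sets). In the same fit 5.96% of all probe sets were called (2.97% higher and 2.99% lower), and 7.15% of all named genes (4.02% higher and 3.13% lower). In the high spike-in tumours alone SIRPA and IDO2 were called, with 3.01% of probe sets called, and in the low ones 0 of 10 genes and 0 of 42924 probe sets were called by limma, with 4989 probe sets at an unadjusted p under 0.05. The median change of the 10 genes was -0.12, against 0.01 over all named genes. The genes were chosen with results of these arrays known, so these counts describe them and test nothing about the group.

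**Figure D1:**
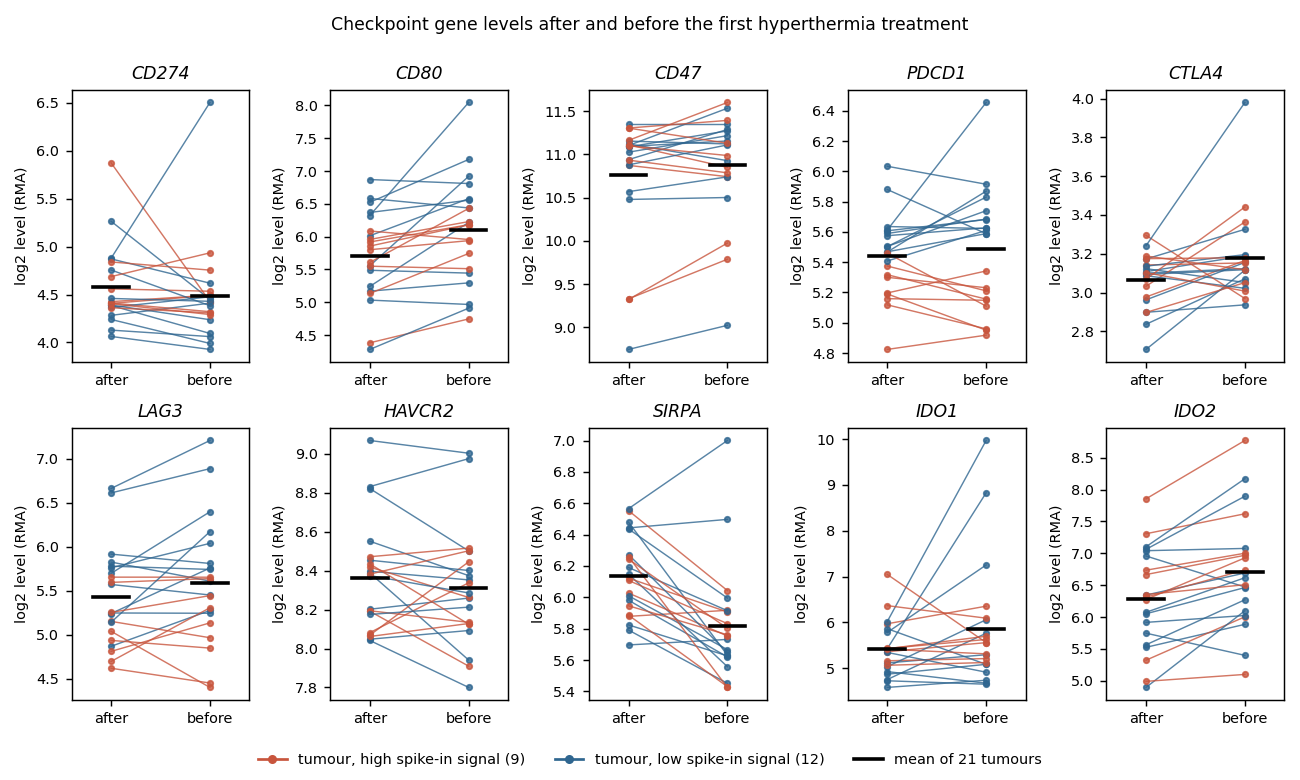
Log2 level (RMA) of each checkpoint gene in the samples taken after and before the first hyperthermia treatment, with 1 line per tumour, coloured by spike-in signal, and a black bar at the mean of 21 tumours. SIRPA was higher after treatment in 17 tumours, IDO2 was lower in 19 and CD80 was lower in 15, and the ranges after and before treatment overlapped for all 10 genes.

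Among the ligands, CD80 fell. Its level after treatment had a lowest value of 4.28, a median of 5.80 and a highest value of 6.87, against 4.75, 6.18 and 8.04 before treatment. It was lower in 15 of 21 tumours, and in the 6 where it was higher the largest rise was only 0.14. The mean change was -0.41 ± 0.10 (SE, n = 21), or 0.755-fold with a 95% interval of 0.652 to 0.873 (limma adjusted p = 0.0185). The largest falls were 1.72 in tumour 15 and 1.36 in tumour 1. Its other probe sets changed by -0.45 ± 0.11 (limma adjusted p = 0.017, 18 tumours lower) and by -0.44 ± 0.16 (limma adjusted p = 0.124). The mean change of CD80 was -0.29 in the high and -0.49 in the low spike-in tumours, with a difference between the sets of 0.20 ± 0.21 (limma interaction, adjusted p = 0.886). The call was lost in either set alone (limma adjusted p = 0.0964 in the high and 0.256 in the low set) and when the fit included that contrast (the 3′ to 5′ measure; limma adjusted p = 0.0675). It held in each of the 21 fits that left out 1 tumour, with changes between -0.43 and -0.34.

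CD274, the ligand of PD-1, did not pass. After treatment it lay between 4.06 and 5.87 with a median of 4.41, against 3.93 to 6.50 with a median of 4.43 before treatment. Although 15 of 21 tumours were higher, the mean change was 0.09 ± 0.11 (SE, n = 21; limma adjusted p = 0.727), with an interval from 0.912-fold to 1.24-fold. The tumours differed in direction, from a fall by 1.63 in tumour 15 to a rise of 1.45 in tumour 10. The mean was 0.16 in the high and 0.04 in the low spike-in tumours. A second probe set of CD274 changed by 0.04 ± 0.12 (limma adjusted p = 0.908), with 10 tumours higher and 11 lower. The first had a mean of 4.53 over all arrays, below the median of 5.28 over all probe sets.

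CD47 lay between 8.75 and 11.35 after treatment (median 11.09), against 9.02 to 11.60 before treatment (median 11.11). In 3 tumours it was far below the others at both times, namely tumours 4, 10 and 11, with 8.75, 9.32 and 9.33 after treatment and 9.02, 9.98 and 9.79 before. The next was tumour 14, with 10.48 after and 10.50 before treatment. The change was -0.12 ± 0.06 (SE, n = 21; 14 tumours lower), with an unadjusted p of 0.0417, and did not pass (limma adjusted p = 0.233). Its second probe set changed by -0.16 ± 0.06 (limma adjusted p = 0.11). The mean change of CD47 was -0.09 in the high and -0.14 in the low spike-in tumours.

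Among the receptors, SIRPA, the receptor of CD47, rose. Its level after treatment was 5.70 at the lowest, 6.12 at the median and 6.57 at the highest, against 5.43, 5.75 and 7.0 before treatment. It was higher in 17 tumours and lower in tumours 1, 4, 11 and 15. The mean change was 0.32 ± 0.06 (SE, n = 21), or 1.25-fold with an interval of 1.14 to 1.37 (limma adjusted p = 0.00515). All 5 probe sets of SIRPA had a change above 0 and 4 of them were called, with changes from 0.19 to 0.46. The fifth changed by 0.11 ± 0.09 (limma adjusted p = 0.55). Some of these probe sets are of a kind that can bind transcripts of related genes. The rise was 0.35 in the high spike-in tumours (8 of 9 higher) and 0.29 in the low ones (9 of 12 higher), and the difference was 0.06 ± 0.13 (limma interaction, adjusted p = 0.955). The call held in every fit that left out 1 tumour but not in the low spike-in tumours alone (limma adjusted p = 0.263).

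The 4 receptors known from T cells did not pass. LAG3 lay between 4.62 and 6.66 after treatment (median 5.25), against 4.40 to 7.21 before treatment (median 5.61). Its change was -0.16 ± 0.08 (SE, n = 21; limma adjusted p = 0.276, 11 tumours lower), and was -0.01 in the high and -0.27 in the low spike-in tumours. CTLA4 lay at the lower end of the array's scale, with 2.71 to 3.29 after treatment and 2.94 to 3.98 before treatment, where the lowest value in the whole table was 2.13. It changed by -0.11 ± 0.05 (16 tumours lower, limma adjusted p = 0.209), with means of -0.06 in the high and -0.15 in the low spike-in tumours, and a level this low leaves little room to measure a fall. HAVCR2 lay between 8.04 and 9.07 after treatment and between 7.80 and 9.004 before treatment. Its change of 0.05 ± 0.05 (limma adjusted p = 0.612) had an interval from 0.97-fold to 1.11-fold, and its mean was -0.006 in the high and 0.096 in the low spike-in tumours. The second probe set of HAVCR2 followed the first only weakly over the tumours before treatment (r = 0.11, n = 21), so the pair need not measure the same transcripts.

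PDCD1, the gene of PD-1, moved with the spike-in signal. Before treatment it lay between 4.92 and 5.34 in the 9 high spike-in tumours and between 5.59 and 6.46 in the 12 low ones, with no overlap. The share of all probe sets that also lack overlap between these sets was not counted. The separation is therefore not shown to be particular to PDCD1. The means after treatment were 5.22 and 5.61 in these sets. LAG3 before treatment had medians of 5.14 and 5.78 in the high and low sets, which overlapped. The part that labelling had in these levels was not tested. The change of PDCD1 within tumours was -0.05 ± 0.06 (SE, n = 21; limma adjusted p = 0.733). It was 0.10 in the high spike-in tumours (7 of 9 higher) and -0.16 in the low ones (3 of 12 higher), a difference of 0.26 ± 0.11 with an unadjusted p of 0.0235 that did not pass (limma interaction, adjusted p = 0.654). The direction of its change also turned with another probe set (0.08 ± 0.07) and with array weights (0.004).

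The enzyme IDO2 fell. Its level after treatment was 4.90 at the lowest, 6.31 at the median and 7.85 at the highest, against 5.10, 6.62 and 8.77 before treatment. It was lower in 19 of 21 tumours, all but tumours 5 and 6. The change was -0.41 ± 0.09 (SE, n = 21), or 0.753-fold with an interval of 0.665 to 0.852 (limma adjusted p = 0.00687). The fall was -0.42 in the high spike-in tumours, where 0 of 9 were higher, and -0.40 in the low ones, where 2 of 12 were higher. Its 4 probe sets did not behave alike. One other was called (-0.34 ± 0.10, limma adjusted p = 0.0485), one changed by -0.18 ± 0.12 (limma adjusted p = 0.452) and one by 0.05 ± 0.04 (limma adjusted p = 0.579). Averaged over all 4 the change was -0.22 and did not pass (limma adjusted p = 0.0638).

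IDO1, the better known enzyme of the pair, had a mean change of similar size but a far wider spread. After treatment it lay between 4.58 and 7.05 with a median of 5.36, against 4.65 to 9.97 with a median of 5.56 before treatment. The SD over the tumours was 0.60 after and 1.34 before treatment. Tumours 15 and 4 had the highest levels before treatment, 9.97 and 8.83, and fell by 3.95 and 3.40 to levels of 6.02 and 5.43. At the other end IDO1 rose by 1.49 in tumour 21. The mean change was -0.44 ± 0.25 (SE, n = 21; 14 tumours lower) and did not pass (limma adjusted p = 0.354). It was 0.08 in the high and -0.82 in the low spike-in tumours, a difference of 0.90 ± 0.47 that did not pass either (limma interaction, adjusted p = 0.725). The medians of the change were closer to 0 than the means for IDO1 (-0.18) and for CD80 (-0.27).

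**Figure D2:**
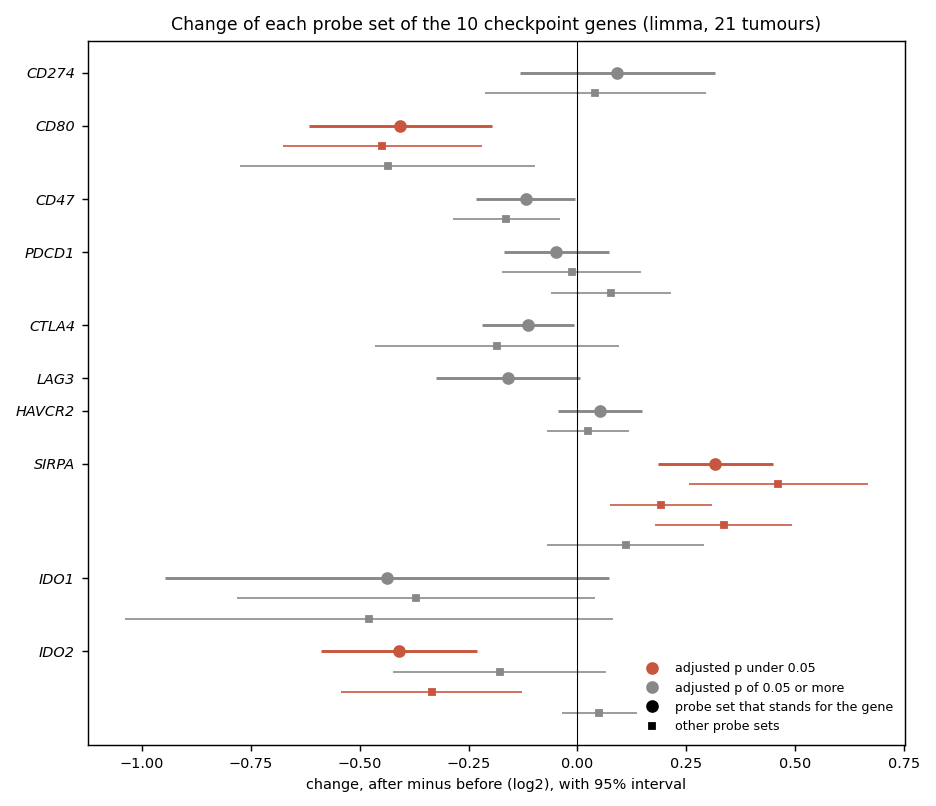
Change (after minus before, log2) of every probe set of the 10 checkpoint genes, with its 95% interval from limma over 21 tumours; large circles are the probe sets that stand for a gene and red marks an adjusted p under 0.05. All 5 probe sets of SIRPA lie above 0 and all 3 of CD80 below it, whereas the 4 of IDO2 range from -0.41 to 0.05.

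The tumours differed in how the checkpoint genes moved, and tumour 15 stood apart. Before treatment it had the highest level of 5 of the 10 genes, namely CD80 (8.04), IDO1 (9.97), SIRPA (7.0), CD274 (6.50) and CTLA4 (3.98). In 6 genes it also had the lowest change of all tumours, and these were the same 5 and LAG3 (-1.03). Only HAVCR2 was higher after treatment in tumour 15 (0.24), and there it had the lowest level before treatment (7.80). A high level at the start leaves more room to fall, and this was not separated from the response. Without tumour 15 the mean changes were -0.26 for IDO1, 0.18 for CD274 and -0.34 for CD80.

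**Figure D3:**
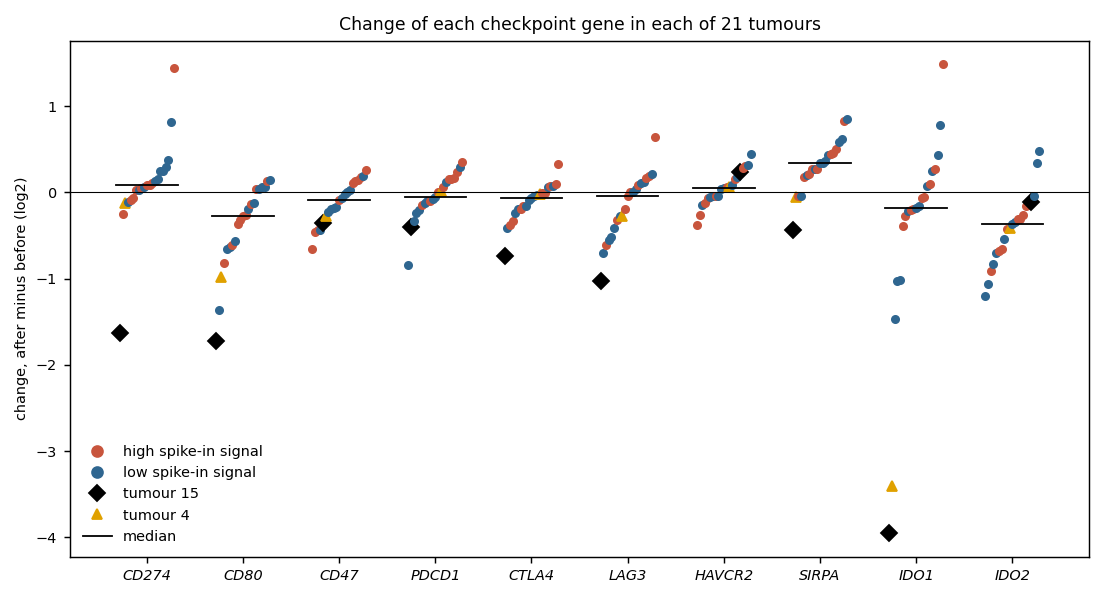
Change (after minus before, log2) of each checkpoint gene in each of the 21 tumours, with black bars at the medians. Tumour 15 (black diamonds) has the lowest value for CD274, CD80, CTLA4, LAG3, SIRPA and IDO1, and tumours 15 and 4 (yellow triangles) fell by 3.95 and 3.40 for IDO1.

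Partners of the checkpoint genes were examined in 5 lists. Their counts are to be read beside all named genes, of which 4.02% rose and 3.13% fell in the same fit. Of 23 measured genes of the B7 and CD28 family and related checkpoints, 0 rose and 2 fell, with a median change of -0.06. CD200, a ligand that restrains myeloid cells through its receptor, changed by -0.37 ± 0.08 (SE, n = 21; limma adjusted p = 0.00884, 17 tumours lower), and averaged 6.97 after and 7.34 before treatment. CD96, a receptor of T and NK cells, changed by -0.23 ± 0.07 (limma adjusted p = 0.0491), and leaving out any 1 of 16 tumours ended this call. CD86, the other B7 ligand of CTLA4 and CD28, changed by -0.05 ± 0.10 (limma adjusted p = 0.877), and its sign turned without tumour 1 (0.02). Whether CD80 and CD86 differed in their change was not tested. CD28 (-0.12 ± 0.06, limma adjusted p = 0.276), PDCD1LG2, the second ligand of PD-1 and the neighbour of CD274 in the dog genome (-0.16 ± 0.07, limma adjusted p = 0.218), and LGALS9, a ligand of HAVCR2 (0.16 ± 0.10, limma adjusted p = 0.433), did not pass.

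Of 13 costimulatory genes of the TNF superfamily, 1 rose and 0 fell. That gene was CD70, the ligand of the T cell receptor CD27, which averaged 5.20 after and 4.38 before treatment and was higher in 20 of 21 tumours. Its change of 0.83 ± 0.14 was 1.77-fold (SE, n = 21; limma adjusted p = 0.00126), and it was called in each fit that left out 1 tumour. Of 16 tryptophan and kynurenine genes, 1 rose, SLC7A5, a subunit of an amino acid transporter that carries tryptophan (0.25 ± 0.07, limma adjusted p = 0.0271). The SLC7A5 call was lost without tumour 10 or tumour 16 (highest limma adjusted p = 0.052). None of the 12 SIRPA and CD47 partners passed in limma, although their median change was 0.09 and THBS1, thrombospondin, a ligand of CD47, changed by 0.31 ± 0.12 (unadjusted p = 0.0153, adjusted p = 0.131).

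Of 25 measured genes of interferon gamma signalling, 1 rose and 3 fell. IL12A, a subunit of interleukin 12, changed by 0.23 ± 0.06 (SE, n = 21; limma adjusted p = 0.0189). CXCL10, an interferon-induced attractant of T cells, changed by -0.96 ± 0.26 (limma adjusted p = 0.0287). The cytokine IL15 (-0.25 ± 0.07, limma adjusted p = 0.0303) and the receptor subunit IL12RB2 (-0.33 ± 0.10, limma adjusted p = 0.0477) fell as well. Leaving out 1 tumour ended the call of CXCL10 in 1 fit (tumour 20), of IL15 in 4 and of IL12RB2 in 14 of 21. IFNG itself (0.03 ± 0.06, limma adjusted p = 0.863) and IRF1 (-0.10 ± 0.12, limma adjusted p = 0.72) did not pass.

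Markers of the cells that carry the checkpoint genes moved too, in a fit where 4.02% of all named genes rose and 3.13% fell. Of 32 measured T and NK cell markers, 0 rose and 10 fell, with a median change of -0.11. Among them GZMA (-0.61 ± 0.12, limma adjusted p = 0.00499) and CD3D (-0.57 ± 0.15, limma adjusted p = 0.0239) fell, while CD8A (-0.12 ± 0.07, limma adjusted p = 0.36) did not pass. The mean level of this list ran from 4.44 to 5.10 after and from 4.58 to 5.69 before treatment. Of 25 macrophage and monocyte markers 4 rose and 1 fell. MARCO (1.86 ± 0.30, limma adjusted p = 0.00117) rose and CSF1R (-0.49 ± 0.15, limma adjusted p = 0.0466, lost in 13 of 21 fits) fell, and CD68 (0.19 ± 0.09, limma adjusted p = 0.267) and CD163 (0.54 ± 0.16, limma adjusted p = 0.0501, under 0.05 in 6 of 21 fits) did not pass. MRC1 (-0.43), C1QA (-0.43), C1QB (-0.53) and C1QC (-0.42) were lower but did not pass (limma adjusted p from 0.0584 to 0.163). CTSS (0.41) and CD14 (0.29) were higher and did not pass either (limma adjusted p = 0.069 and 0.0739). The mean of the macrophage list thus joins genes that moved in opposite directions, and the median change of the list was 0.08. Its mean level ran from 6.52 to 8.55 after and from 6.26 to 8.67 before treatment. Of 20 dendritic cell markers 1 rose and 0 fell, and of 13 B and plasma cell markers none was called. Of 13 measured neutrophil markers, some of which macrophages share, 4 rose and 0 fell (TREM1, LCN2, ITGAM and S100A9), and their mean was higher in 16 tumours, with levels of 4.72 to 6.49 after and 4.52 to 7.13 before treatment. The granule genes ELANE (-0.06 ± 0.06, limma adjusted p = 0.658) and MPO (-0.01 ± 0.08, limma adjusted p = 0.956) did not pass. Nor did S100A8 (0.67 ± 0.23, limma adjusted p = 0.0812) and FPR2 (0.13 ± 0.05, limma adjusted p = 0.0984), which were higher in 17 and 15 tumours. The part of these cells in the changes of SIRPA, CD80 and IDO2 was not tested.

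Outside the neutrophil list, the 12 partner and marker genes named as called had the same sign of change in both spike-in sets. With the 3′ to 5′ measure in the fit, limma no longer called CD96 (adjusted p = 0.135), SLC7A5 (0.0896), IL12A (0.0752), IL15 (0.1004), IL12RB2 (0.122), CD3D (0.0516) and CSF1R (0.194). In that fit CD70, CD200, CXCL10, GZMA and MARCO were called (highest adjusted p = 0.0459). In the high spike-in tumours alone CD70, CD200, CXCL10 and MARCO were called, with a change of CD70 of 1.15, against 0.59 in the low ones. In the high set IL12A (limma adjusted p = 0.093), CD3D (0.1405) and GZMA (0.0511) did not pass. Nor did CD96 (limma adjusted p = 0.408), SLC7A5 (0.175), IL15 (0.0899), IL12RB2 (0.368) and CSF1R (0.179). In the low set limma called 0 probe sets, so none of the 12 genes passed there.

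**Figure D4:**
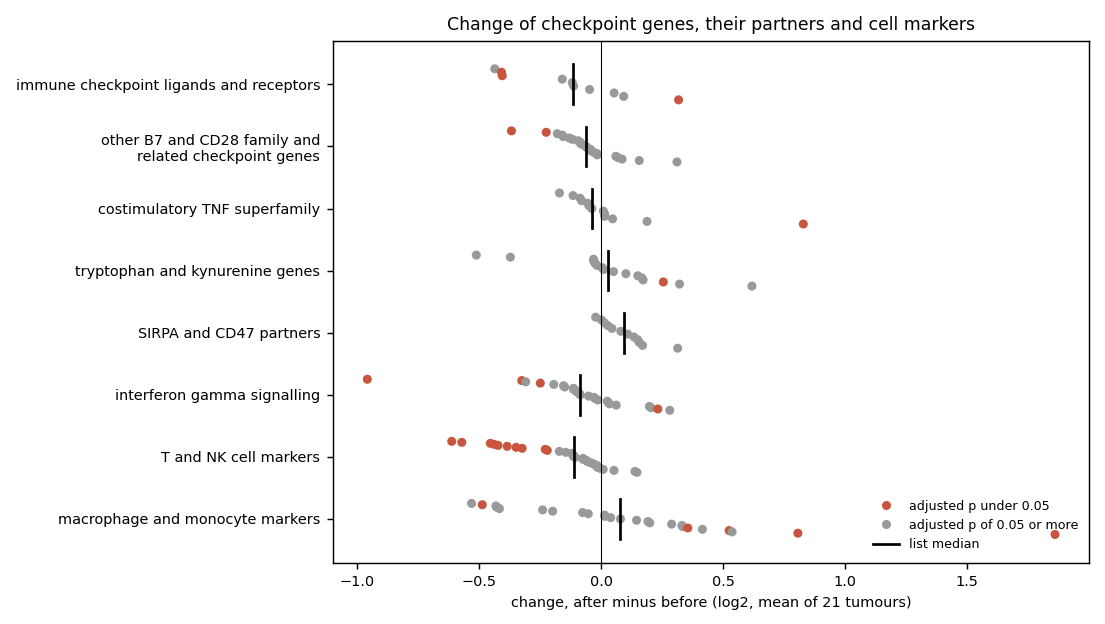
Mean change over 21 tumours (after minus before, log2) of each measured gene of 8 lists, in red where the limma adjusted p was under 0.05, with black bars at the list medians. CD70 at 0.83 is the single called gene of the TNF superfamily list, and the 10 called T and NK cell markers all lie below 0.

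Relations over the tumours were then examined between each checkpoint gene and the mean of the T and NK cell markers or of the macrophage markers, none of which is a checkpoint gene. Before treatment, CD80 went with macrophage markers (Pearson's r = 0.74, Spearman's rho = 0.69, n = 21, permutation p = 0.00022 and 0.00077, adjusted p = 0.0022 and 0.0085 over 20 relations). The r was 0.65 within the high and 0.77 within the low spike-in tumours (permutation p = 0.0565 and 0.0038), and 0.64 without the 2 tumours farthest from the median of the marker mean, which were 2 and 15. With T and NK cell markers CD80 had r = 0.55 and rho = 0.49 (permutation p = 0.01004 and 0.0267, adjusted p = 0.0268 and 0.107), and r = 0.36 without tumours 4 and 15. CD80 also went with CD86 (r = 0.74, rho = 0.76, permutation p = 0.00012 for each, adjusted p = 0.0014 for each over 12 gene pairs), with r = 0.93 and 0.67 within the high and low sets and 0.68 without the 2 farthest tumours. The gene pairs were chosen after the levels had been seen.

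LAG3 went with T and NK cell markers before treatment (r = 0.59, rho = 0.68, n = 21, permutation p = 0.0057 and 0.00085, adjusted p = 0.0268 and 0.0085), with r = 0.59 and 0.54 within the high and low sets (permutation p = 0.081 and 0.0613, neither under 0.05) and 0.497 without tumours 4 and 15. For the changes of LAG3 and of these markers r was 0.61 and rho 0.51 (permutation p = 0.0032 and 0.0188, adjusted p = 0.0158 and 0.188). For the changes of CD80 and of macrophage markers r was 0.64 and rho 0.59 (permutation p = 0.0021 and 0.0058, adjusted p = 0.0158 and 0.117), with r = 0.24 and 0.74 within the high and low sets. The change of CD80 had the same r of 0.64 with that of T and NK markers, with rho = 0.35 (permutation p = 0.0028 and 0.125, adjusted p = 0.0158 and 0.313), and r = 0.37 without tumours 4 and 15. The change of SIRPA with that of T and NK markers had r = 0.57 and rho = 0.36 (permutation p = 0.0071 and 0.107, adjusted p = 0.0284 and 0.313), and r = 0.23 without those tumours. The other pooled values of r that passed before treatment were smaller without the 2 tumours farthest from the median of the marker mean. For T and NK markers these were tumours 4 and 15, which had the highest means. IDO1 with T and NK markers had r = 0.86 and rho = 0.61 (permutation p = 0.00011 and 0.0043, adjusted p = 0.0022 and 0.0255), but r = 0.46 without these 2 tumours (permutation p = 0.0506). It was 0.56 within the high and 0.94 within the low spike-in tumours (permutation p = 0.127 and 0.00027). With macrophage markers IDO1 had r = 0.56 and rho = 0.596 (permutation p = 0.0085 and 0.0051, adjusted p = 0.0268 and 0.0255), and r = 0.32 without tumours 2 and 15 (permutation p = 0.182). Within the high set, which includes neither, this r was 0.73, and within the low set 0.56 (permutation p = 0.0242 and 0.0585). With T and NK markers SIRPA had r = 0.78 and 0.195 without tumours 4 and 15, CD274 had 0.65 and 0.27, and CTLA4 had 0.62 and 0.304. Within the high spike-in tumours, which include neither, r was 0.145 for SIRPA, 0.56 for CD274 and 0.38 for CTLA4 (permutation p = 0.704, 0.126 and 0.313). Within the low ones it was 0.92, 0.73 and 0.69 (permutation p = 0.00093, 0.0203 and 0.0304). The size of r in these 3 relations thus depended on which tumours were kept. Their rho was 0.44, 0.195 and 0.44, and none of the 3 passed by rho (permutation tests, adjusted p = 0.137, 0.626 and 0.137). With macrophage markers CD274 had r = 0.53 and rho = 0.42 (permutation p = 0.0113 and 0.0555, adjusted p = 0.0268 and 0.139), and r = 0.21 without tumours 2 and 15. This r was 0.44 within the high and 0.57 within the low spike-in tumours (permutation p = 0.245 and 0.0514). SIRPA did not pass with macrophage markers, by level (r = 0.41) or by change (r = 0.45; permutation tests, adjusted p = 0.131 and 0.115). IDO2, CD47 and HAVCR2 passed with neither marker list by r or rho. For PDCD1, whose levels fell into separate clusters by spike-in signal, r with T and NK markers was -0.35 within the high and -0.12 within the low set (permutation p = 0.38 and 0.663).

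Of the other pairs before treatment, CD274 and IDO1, both targets of interferon gamma, had r = 0.76 and rho = 0.71 (n = 21, permutation p = 0.0017 and 0.00036, adjusted p = 0.0068 and 0.0022 over 12 pairs), and r = 0.61 without tumours 4 and 15. Without tumour 15 alone r was 0.41, and it was 0.43 within the high and 0.796 within the low spike-in tumours (permutation p = 0.238 and 0.0021). The size of r thus depended on which tumours were kept. CD274 and PDCD1LG2 had r = 0.68 and rho = 0.48 (permutation p = 0.0014 and 0.0277, adjusted p = 0.0068 and 0.111), and r = 0.31 without tumours 7 and 15. Within the high spike-in tumours, which include neither, r was 0.66, and it was 0.74 within the low ones (permutation p = 0.0499 and 0.0164). CD47 and its receptor SIRPA had r = -0.31 and rho = -0.22, and IDO1 and IDO2 had r = -0.0006 and rho = 0.11, and neither pair passed (permutation tests, adjusted p from 0.196 to 0.998). Of the 12 pairs of changes 0 passed by r or rho after adjustment.

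**Figure D5:**
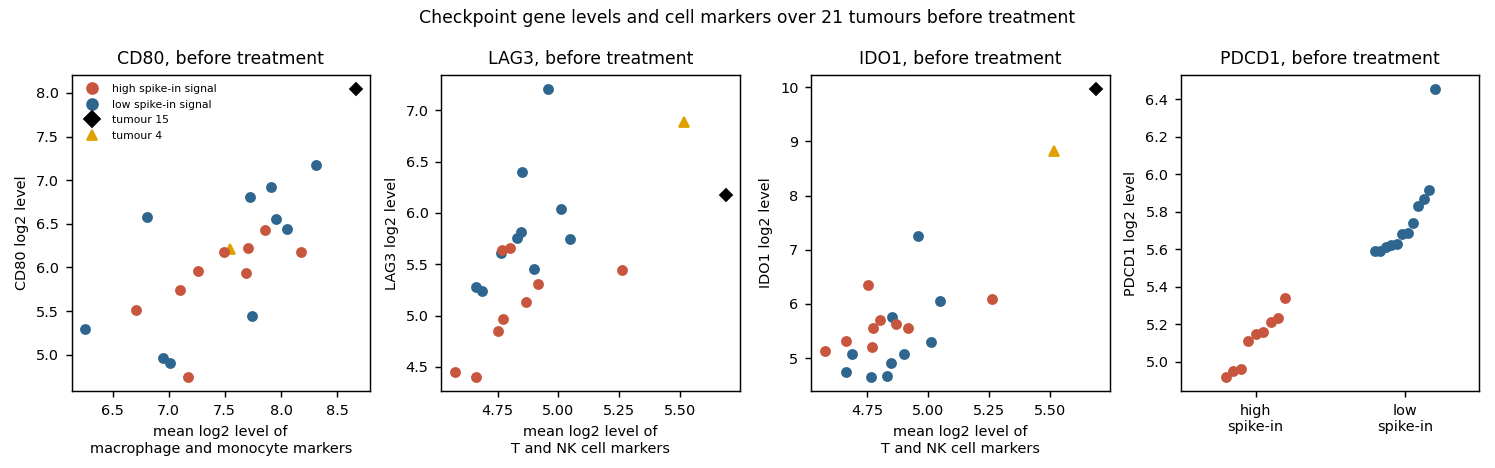
Levels before treatment (log2) in 21 tumours, coloured by spike-in signal, of CD80 against the mean of macrophage markers, of LAG3 and IDO1 against the mean of T and NK cell markers, and of PDCD1 by spike-in signal. CD80 and LAG3 have r above 0.5 with their marker means in both sets, IDO1 is high in tumours 15 and 4, and PDCD1 does not overlap between the sets.

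The genes most like each checkpoint gene before treatment were sought among the other 15105 named genes by Pearson's r over 21 tumours, as a description with no test. CD80 was most like CCR1 (r = 0.86), DLA-DRA, a dog MHC class II gene (0.83), and ANKRD44 (0.83), each at 0.76 or above without tumour 15. IDO1 was most like GNAQ (0.93), the interferon-induced GTPase gene GBP1 (0.93) and SLC2A1 (0.92), of which GBP1 was the one with r above 0.7 in both spike-in sets (0.76 and 0.94). LAG3 was most like EBF2 (0.83), FBXW4 (0.82) and YAF2 (0.81), and CD47 was most like METAP2 (0.73), RAB11A (0.72) and ITGB5 (0.72). IDO2 was most like PTPN9 (0.703), HGFAC (0.66) and CEP290 (0.64). HAVCR2 was most like COX11 (0.83), PRPF8 (0.82) and ARL3 (0.79), which were at 0.41, 0.56 and 0.28 within the high and at 0.92, 0.88 and 0.95 within the low spike-in tumours. For CD274 the values were set by tumour 15, since LOC608379 (0.93), LOC483397 (0.93) and TFRC (0.93) were at 0.62, 0.599 and 0.62 without it. Within the high spike-in tumours they were at 0.12, 0.43 and 0.07. CTLA4 with MMP3 (0.87), IL1RN (0.87) and ASPRV1 (0.87) was at 0.48, 0.503 and 0.45 without tumour 15. SIRPA was most like ATP6V1C2 (0.91), ELL2 (0.903) and KRT2 (0.88), which were at 0.795, 0.79 and 0.71 without it. These were at 0.51, 0.64 and 0.33 within the high and at 0.954, 0.955 and 0.945 within the low spike-in tumours. PDCD1 had CPNE4 (0.91), ZNF275 (0.897) and CEL (0.88), pooled over sets that do not overlap, and within the high spike-in tumours these were at 0.68, 0.38 and -0.05, against 0.72, 0.77 and 0.78 within the low ones.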

How the data were processed

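RNA from 42 tumour samples, 21 after and 21 before hyperthermia, was hybridised to Affymetrix canine arrays. The series names 22 tumours, and the other one was not analysed here. RMA and Affymetrix Expression Console were named in the submitters' processing notes, without versions. The authors' deposited table holds log2 levels between 2.13 and 14.6, its array medians lie between 5.20 and 5.31, and it has no detection calls. Precision is limited by how many arrays there are. Tests excluded 111 control probe sets. Of the other 42924 probe sets, 29254 had 1 gene symbol, 439 had several and were not named, and 13231 had none here. The platform annotation and the current dog gene table gave the same symbol and identifier for all 10 genes.

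Tumours were paired by the code that starts the title. After removal of the group means all 21 arrays correlated best with their own partner. The labels do not say whether tumours came from different dogs, so p-values measure the spread between tumours. limma 3.58.1 in R 4.3.3 was fitted to all probe sets with the tumour as a block, two-sided, with Benjamini-Hochberg adjustment at 0.05, and was tested on simulated data. Spike-in sets were divided at the largest gap in the poly-A control level (5.04). Correlations used 100000 permutations, two-sided, in Python 3.11.15 (SciPy 1.17.1 and NumPy 2.4.6 for computing, pandas 2.3.3 for tables, Matplotlib 3.10.9 for plots). The members and lists were chosen with earlier results of these data known. Beside the 10 genes, called list members (up to 4 in each direction), a fixed set of partners and markers, and the 3 genes most like each member were named. Called marker genes outside the fixed set were counted only, except those of the neutrophil list. These, with ELANE, MPO, S100A8 and FPR2, were named after their values were seen. So were MRC1, C1QA, C1QB, C1QC, CTSS and CD14 of the macrophage list. Alternatives were a level filter, no block, tumour as a random block, trend and robust shrinkage, array weights, repeated quantile normalisation, median centring, the 3′ to 5′ contrast, the Wilcoxon signed-rank test, other probe sets, a threshold of 0.01, tumour subsets and leaving out each tumour.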

Additional observations from a re-analysis of the deposited data

How the results depend on the processing

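The calls of SIRPA, CD80 and IDO2 were all kept above the median level, with trend and robust shrinkage, array weights, repeated quantile normalisation, median centring, the Wilcoxon test and in each of 21 fits without 1 tumour (3 calls each time). With no tumour block 0 of the 10 genes and 30 probe sets were called, by limma, with 2338 probe sets at an unadjusted p under 0.05. With a random replicate block 1 gene was called, SIRPA. In the low spike-in tumours alone limma called 0 genes and 0 probe sets, with 4989 at an unadjusted p under 0.05, and the unadjusted p was 0.00632 for CD80, 0.00954 for IDO2 and 0.00785 for SIRPA. Among 15 tumours within 0.5 of no change in the 3′ to 5′ contrast, limma called 0 genes and 340 probe sets, and SIRPA had a change of 0.33 (adjusted p = 0.0684, unadjusted p = 0.000902). These subsets hold fewer tumours. Called probe sets numbered 1094 with the 3′ to 5′ covariate, 1293 in the high spike-in tumours and 1816 to 3171 with 1 tumour left out, against 2558. Changes that did not pass turned sign for IDO1 (0.0783), PDCD1 (0.101), HAVCR2 (-0.00624), CD86 (0.0894) and IRF1 (0.0425) in the high spike-in tumours, and for IFNG (-0.0148) in the low ones. They also did so for CD86 (0.0254) and IFNG (-0.0288) with the 3′ to 5′ limit, for the Wilcoxon medians of CD86 (7.1e-05) and IRF1 (0.0123), for CD86 without tumour 1 (0.0246, with -0.0816 as the lowest of the 21 such fits), and for PDCD1 with array weights (0.00407), its probe set mean (0.00504) and another probe set (0.0769). The change of IDO2, which passed, turned sign with 1 of its other probe sets (0.0502). The change of IDO1 with that of T and NK markers had r = 0.67 over all tumours and -0.65 in the high spike-in tumours. Without tumours 4 and 15 r was 0.075 (permutation p = 0.759), so the value over all tumours rests on them. Its rho over all tumours was 0.30 and did not pass (permutation test, adjusted p = 0.424). The cause was not tested. Levels as low as those of CTLA4 limit what can be detected.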
